A study of Mus musculus with 4 samples.

Results

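The genes of the basal transcription machinery were described by the Foxr2 peaks at their transcript starts. The 97 members were the protein-coding genes of the GENCODE M21 annotation of the mouse genome whose symbol begins with Polr1, Polr2, Polr3 or Gtf2, or with Med or Taf and a digit. The rule uses the symbol and no measured value. They are 97 of 21853 protein-coding genes with a protein-coding transcript. By complex they comprised 28 subunits of the RNA polymerases, 23 TBP-associated factors, 16 general factors and relatives of TFII-I, and 30 Mediator subunits.

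RNA polymerase I makes ribosomal RNA, RNA polymerase II makes messenger RNA, and RNA polymerase III makes transfer RNA and other short transcripts. TFIID, built from TBP and the TAFs, recognises the core promoter, TFIIA to TFIIH then load and open the polymerase II complex, and Mediator carries signals from bound factors to the polymerase through its head, middle and tail, with a kinase module that docks on it reversibly. Most of these genes are needed in nearly every cell, while some encode forms known from germ cells or other particular cells. The data show at which of them, and how strongly, FOXR2, a forkhead transcription factor, was found at the start.

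Binding was measured by CUT&RUN, in which an antibody directs a nuclease to the tagged protein and the released DNA is sequenced. The tagged group, Foxr2 p53LOF, had 2 replicates of a C57BL/6J neurosphere line grown from a mouse brain tumour, into which in utero electroporation had brought piggyBac FOXR2 with a V5 tag under the ubiquitous CAG promoter and a CRISPR vector against Trp53. The V5 control group had 2 replicates from a separate electroporation model of genotype H3.3G34R that carries no V5 tag, so that the groups differed in the driver as well as in the tag. Both groups were lightly cross-linked, and the protein read out is the overexpressed, tagged FOXR2. No source used here says whether the replicates of a group were separate cultures, and neither group holds more than 1 kind of tumour line. Sex and age are not given in the sources used here.

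The Foxr2 p53LOF libraries held 31909 and 38580 called peaks and the control libraries 308 and 124. The depth is shown by the background that the deposited folds imply, which was 1.26 and 2.04 fragments in the Foxr2 p53LOF libraries and 1.69 and 0.642 in the controls. The background of control replicate 1 therefore lay between those of the tagged libraries, while control replicate 2 was the shallowest library. To exceed a fold of 6, a summit in replicate 1 needed 13 fragments or more and a summit in replicate 2 needed 18. With 2 libraries against 2, an exact permutation test cannot fall below p = 0.33, so no test between the groups was made, and a count among members is read beside the same count over all genes.

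A called peak within 1 kb of a start was present at 92 of the 97 members in replicate 1 and at 93 in replicate 2, where 53.4% and 54.4% of all protein-coding genes had one. In both replicates it was present at 91 members, or 93.8%, against 51.5% of all genes. A reproducible promoter site, which needs a peak in each replicate with fold above 6 and −log10 q above 6, no overlap with a control peak and a shared stretch, was present at 77 members, or 79.4%, against 39.3% of all genes. No member had a called peak at a start in either control library, where 0.124% and 0.0869% of all genes had one.

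Of the 28 polymerase genes, 25 had a site. The TAFs had a site at 16 of 23 genes, the general factors and TFII-I relatives at 13 of 16 and Mediator at 23 of 30. All 28 polymerase genes had a called peak in both replicates, which also held for 21 of 23 TAFs, 15 of 16 general factors and 27 of 30 Mediator genes. The machinery outside the symbol rule gave similar counts. Of 43 other genes, among them Tbp, the TFIIIC and SNAPc subunits, the NELF subunits and the kinases Cdk7, Cdk8, Cdk9 and Cdk19, all 43 were called in both replicates and 37, or 86%, had a site.

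**Figure D1:**
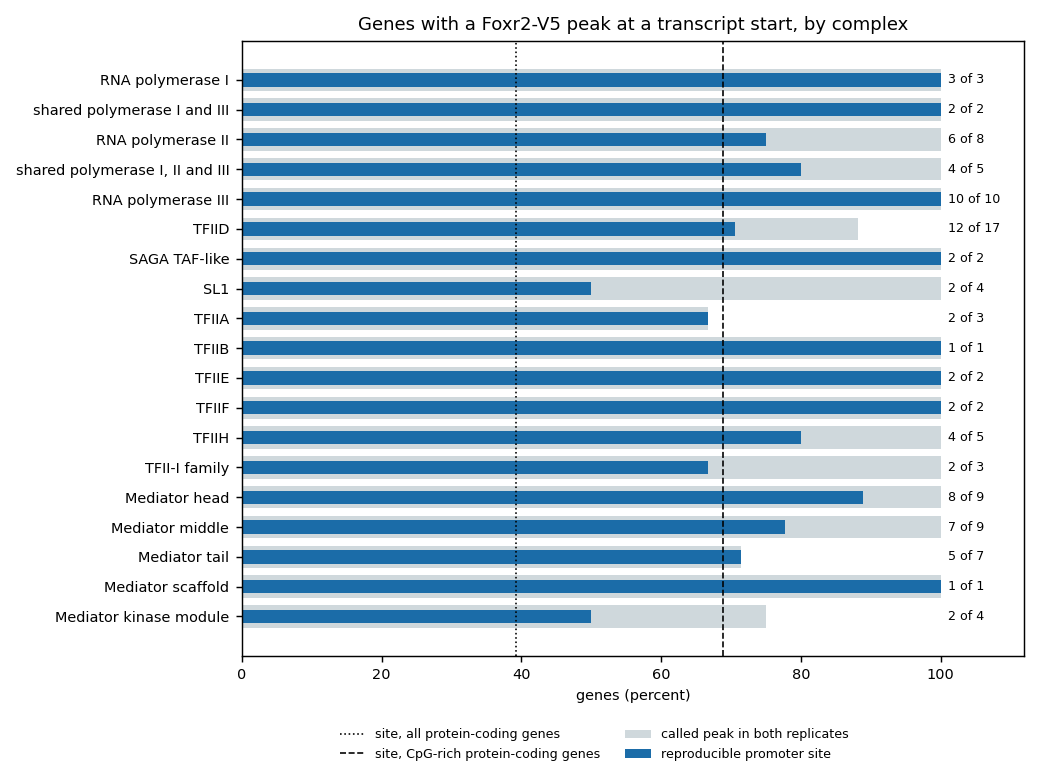
Share of genes with a called peak in both Foxr2 p53LOF replicates (grey bars) and with a reproducible promoter site (blue bars) in each complex, in percent, with the number of genes at the right. The dotted line marks all protein-coding genes (39.3%) and the dashed line those with a CpG-rich start (68.8%); SL1, the kinase module, TFIIA and the TFII-I family, of 4, 4, 3 and 3 members, lie under the dashed line.

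The fold enrichment of a peak is the number of fragments at its summit plus 1, over the background plus 1, and the lower of the replicate values is called the lower fold. RNA polymerase I had a site at 3 of 3 genes. Polr1a, its largest catalytic subunit, had the highest lower fold of the 97 members, with a fold of 31.4 in replicate 1 (95% Poisson interval 24.6 to 39.5, from 70 fragments) and of 40.1 in replicate 2 (33.3 to 47.8, from 121 fragments). Its site, chr6:71906890-71910148, also covered the start of Ptcd3 on the other strand, 311 bp away, and the replicate 1 summit was nearer to Ptcd3 than to Polr1a. The remaining polymerase I genes were far lower. Polr1b, the second largest subunit, had folds of 8.84 and 10.5, and Polr1e, part of the initiation-competent enzyme, had 8.39 and 8.54. Polr1c and Polr1d, shared by polymerases I and III, had 10.2 and 8.54, and 10.6 and 13.1.

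RNA polymerase II had a site at 6 of 8 genes. Polr2a, the catalytic subunit with the carboxy-terminal repeat domain, had a fold of 27.4 in replicate 1 (21.1 to 35.1) and of 36.8 in replicate 2 (30.3 to 44.2). Its site was the longest among the members, 6212 bp at chr11:69754525-69760736, and both summits lay upstream, at -300 and -316 bp relative to the start. Polr2b, the second largest subunit, had folds of 16.8 and 19.4, and Polr2i had 15.9 and 18.7. Lower sites were those of Polr2d (10.2 and 8.87), Polr2j (9.72 and 9.53) and Polr2m (7.51 and 12.2). The polymerase II genes without a site were Polr2c, with folds of 3.98 and 4.93, and Polr2g, with 5.74 and 7.56. Genes for subunits of 1 enzyme thus differed beyond counting error, since the intervals of Polr2c (1.97 to 7.41 and 2.84 to 8.05) and of Polr2a did not overlap in either replicate.

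The sequence just upstream of Polr2a, of the strongest site in RNA polymerase II, is set beside that of Polr2c, the weakest. Sequences are from GRCm38.p6, 5′ to 3′ on the strand of the gene, and run to the base before the start. Capitals mark matches, on either strand, to the words searched, here GGGCGG (the SP factor box), CCAAT (the NF-Y box), TATAAA (the TATA box) and CCNTTGT (a SOX word).
Polr2a (chr11:69758638-69758787, minus strand): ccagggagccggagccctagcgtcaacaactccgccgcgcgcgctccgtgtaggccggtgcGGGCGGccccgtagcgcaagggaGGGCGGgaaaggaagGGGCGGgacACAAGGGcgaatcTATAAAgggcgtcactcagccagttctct
Polr2c (chr8:94857300-94857449, plus strand): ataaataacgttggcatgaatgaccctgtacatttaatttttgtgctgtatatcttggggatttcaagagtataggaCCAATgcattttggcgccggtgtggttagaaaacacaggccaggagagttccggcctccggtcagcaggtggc
The Polr2a stretch had 17 CpGs and 68% G and C, with 3 GGGCGG matches and a TATAAA match, and the Polr2c stretch had 5 CpGs and 46.7%. These matches did not follow the site across the enzyme. The 62 bases taken upstream of Polr2b, which had a site, held no match, and the stretch of Polr2g, without a site, held GGGCGG on both strands. The match letters are a description of these stretches, and no measurement of a factor other than FOXR2 was made.

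Of the subunits that all 3 polymerases share, 4 of 5 had a site. Polr2f had folds of 13.7 and 13.5 and Polr2h had 13.7 and 18.7, while Polr2k (8.84 and 8.21) and Polr2l (9.28 and 9.20) were lower. Polr2e missed the site only by its replicate 1 peak, with 5.30 in replicate 1 and 8.21 in replicate 2. RNA polymerase III had a site at 10 of 10 genes, with a median lower fold of 10.8. Polr3d was its strongest gene, with 22.1 and 29.9, and Polr3k its weakest, with 7.95 and 11.8. Polr3g and Polr3gl encode alternative forms of 1 subunit, of which the Polr3g form is known from stem and tumour cells. Polr3g had folds of 16.8 (12.0 to 23.0) and 21.0 (16.2 to 26.8), and Polr3gl had 15.02 and 18.4. The intervals of the pair overlapped in both replicates. Their upstream stretches are shown because both starts carried a site of like fold with different letters in them (CTTCCGG is the ETS word CCGGAAG on the other strand, CCGCCC is GGGCGG and ATTGG is CCAAT).
Polr3g (chr13:81711014-81711163, minus strand): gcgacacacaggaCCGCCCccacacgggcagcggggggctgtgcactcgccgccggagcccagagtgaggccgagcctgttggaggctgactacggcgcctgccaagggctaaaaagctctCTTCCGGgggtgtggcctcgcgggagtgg
Polr3gl (chr3:96594182-96594331, minus strand): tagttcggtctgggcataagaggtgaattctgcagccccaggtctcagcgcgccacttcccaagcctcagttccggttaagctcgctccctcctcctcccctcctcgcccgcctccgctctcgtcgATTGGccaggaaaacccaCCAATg

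TFIID had a site at 12 of 17 genes, with a median lower fold of 10.2 at those sites. Taf8, which brings TAF10 into the complex, was the strongest, with a fold of 23.9 in replicate 1 (17.98 to 31.1) and of 27.9 in replicate 2 (22.3 to 34.5). Taf15, an RNA-binding FET protein found with part of TFIID, had 22.1 and 21.7. Taf9 had 19.4 and 14.1 and Taf6, which pairs with it through a histone fold, had 15.02 and 15.1. Taf12 had 13.7 in replicate 1 (9.39 to 19.4) and 23.7 in replicate 2 (18.5 to 29.8), a wide gap within overlapping intervals. The remaining sites ranged from Taf11 (11.05 and 13.1) down to Taf3 (6.19 and 6.24), a reader of promoter chromatin through its PHD finger and the member site closest to the threshold. Taf13, Taf2, Taf4, Taf4b and Taf5 lay between them.

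TFIID genes without a site were Taf1, Taf10, Taf7, Taf7l and Taf9b. Taf1, the largest subunit, had folds of 5.30 and 5.26. Taf10 had 4.86 and 5.59, and Taf7 had 7.07 and 5.91 and failed by its replicate 2 value alone. Taf7l and Taf9b had no called peak within 1 kb of a start in either library. Taf8 and Taf10, whose proteins form a pair, thus stood at opposite ends of the called genes of the complex. The SAGA relatives Taf5l and Taf6l were both strong, with 19.4 and 22.0, and 16.8 and 21.0. Of the SL1 factors of polymerase I, Taf1a (11.9 and 15.4) and Taf1d (12.8 and 11.2) had a site, and Taf1b (4.86 and 3.94) and Taf1c (5.74 and 10.5) did not.

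The upstream stretch of Taf8 is shown as that of the strongest TAF, and that of Taf5l, 110 bases long, as an example with an ETS word. At Taf5l this word was not within 100 bp of the summit in either replicate. It also stood in the upstream stretches of Taf1b, Taf1c and Med4, which had no site. In Taf8 the word CACGTG (an E-box) is in capitals as well.
Taf8 (chr17:47502293-47502442, minus strand): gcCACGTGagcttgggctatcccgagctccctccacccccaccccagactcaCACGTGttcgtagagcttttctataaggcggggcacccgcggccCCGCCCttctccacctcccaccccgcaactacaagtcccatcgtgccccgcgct
Taf5l (chr8:124021398-124021507, minus strand): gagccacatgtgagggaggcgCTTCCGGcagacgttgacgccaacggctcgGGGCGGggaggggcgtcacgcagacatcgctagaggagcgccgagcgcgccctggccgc

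Among the general factors, the TFIIE, TFIIF and TFIIB genes all had a site, TFIIH at 4 of 5 and TFIIA at 2 of 3. Gtf2e1 had folds of 14.6 and 21.7 and Gtf2h1, a core subunit of TFIIH, had 14.1 and 22.0. In both replicates these summits were nearer to the start of another gene. That gene was Rabl3, with a start 96 bp from Gtf2e1, and Hps5, with a start 39 bp from Gtf2h1. Gtf2a1, the large subunit of TFIIA, had 15.9 and 18.1. Lower and close to each other were Gtf2a2 (8.84 and 8.21), Gtf2b (8.39 and 9.86), Gtf2e2 (8.84 and 8.21), Gtf2f1 (10.6 and 10.2), Gtf2f2 (9.72 and 9.53), Gtf2h2 (8.84 and 10.2), Gtf2h3 (10.2 and 11.5) and Gtf2h5 (9.28 and 8.54). Gtf2h4, with 5.74 and 6.57, had no site. In the TFII-I family Gtf2i had 15.5 and 22.7 and Gtf2ird2 had 19.9 and 19.7, while Gtf2ird1 had 6.19 and 4.60. The intervals of Gtf2ird1 overlapped neither those of Gtf2i nor those of Gtf2ird2 in either replicate.

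Mediator had a site at 8 of 9 head, 7 of 9 middle and 5 of 7 tail genes, at the scaffold gene Med14 and at 2 of 4 genes of the kinase module. In the head, Med11 had a fold of 25.2 in replicate 1 (19.1 to 32.6) and of 31.9 in replicate 2 (25.9 to 38.8), and Med20 had 21.7 and 26.6. The lowest head site was Med28, with 7.07 and 8.54. Med22, Med17, Med18, Med6 and Med8 lay between, and Med30, with 5.74 and 5.91, had none. In the middle, Med31 had 19.4 and 20.7 and Med1, the contact of nuclear receptors, had 14.1 and 17.1. Med7 was lowest, with 7.07 and 7.88. Med21, Med26, Med19 and Med9 had lower folds of 13.3, 11.05, 8.84 and 8.84. Med10 (4.86 and 8.87) and Med4 (5.74 and 10.2) failed in replicate 1 alone. In the tail, Med25 had 21.7 and 28.9 and Med16 had 14.1 and 20.04, ahead of Med29, Med24 and Med15, whose lower folds were 9.53, 8.84 and 8.54.

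Among the Mediator genes that the symbol rule takes, those of the kinase module had a site least often, at 2 of 4. Med13, which links the module to the core, had folds of 16.3 and 18.7, and its paralogue Med13l had 5.30 and 6.57. Med12, the activator of the kinase, had no called peak in replicate 1 and a peak of fold 3.61 in replicate 2 (1.90 to 6.37, from 10 fragments), while its paralogue Med12l had 7.07 and 8.87. All 4 of these members had a CpG-rich start. The kinase partners Cdk8 (11.9 and 12.2), Cdk19 (19.0 and 35.2) and Ccnc (9.28 and 8.21), which the symbol rule does not include, all had a site.

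**Figure D2:**
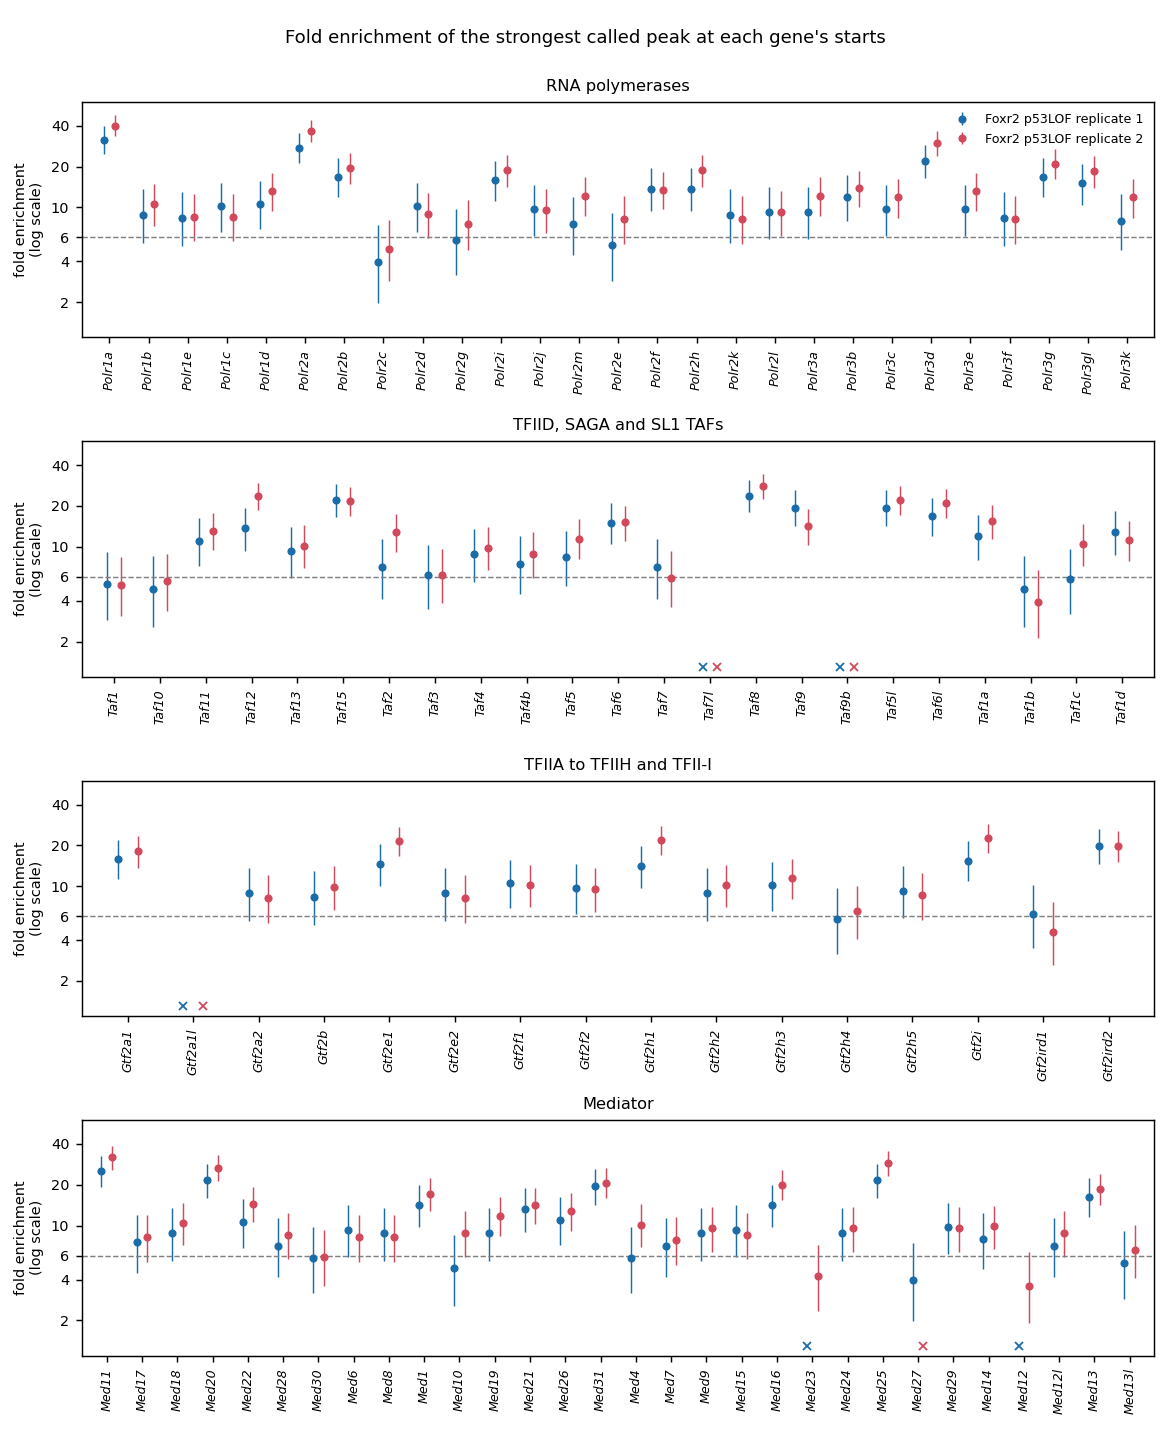
Fold enrichment (log axis) of the strongest called peak at the starts of the genes in Foxr2 p53LOF replicate 1 (blue) and 2 (red), with 95% Poisson intervals of the summit count, in 4 panels by group. Crosses at the foot mark genes without a called peak in that library and the dashed line marks a fold of 6; Polr1a at 31.4 and 40.1 is the highest gene, and the intervals of the replicates overlap at every gene drawn with both values.

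The 20 members without a site fell into 3 kinds. At 14, a peak was called in both replicates but at least 1 of them failed the filters. Of these 14, Polr2g, Polr2e, Taf1c, Gtf2h4, Med10, Med4 and Med13l passed in replicate 2 only, Taf7 and Gtf2ird1 passed in replicate 1 only, and Polr2c, Taf1, Taf10, Taf1b and Med30 passed in neither. At 3 Mediator genes a peak was called in a single library. Med27 had a fold of 3.98 in replicate 1, Med23 had 4.27 and Med12 had 3.61 in replicate 2, all from 8 to 12 fragments. These peaks of fold near 4 were thus called in 1 library and not in the other. At 3 members, Gtf2a1l, Taf7l and Taf9b, neither library had a called peak.

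The members without any peak are relatives of genes that had one. Gtf2a1l and Taf7l are germ cell forms of TFIIA and of TAF7, and Taf9b is a close relative of Taf9. The nearest called peak to a Gtf2a1l start was 28399 bp away in replicate 1 and 15742 bp in replicate 2, to a Taf9b start 30348 and 31827 bp, and to a Taf7l start 64163 and 64195 bp. No called peak thus lay just outside the window at these genes. The germ cell form Taf4b had, by contrast, folds of 7.51 and 8.87, beside 8.84 and 9.86 at Taf4. Taf5 (8.39 and 11.5) was lower than Taf5l, with intervals that did not overlap in either replicate, while those of Taf6 and Taf6l overlapped in both.

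The upstream stretch of Gtf2a1, which had a site, is set beside those of Gtf2a1l, Taf9b and Taf7l, which had no peak.
Gtf2a1 (chr12:91590010-91590159, minus strand): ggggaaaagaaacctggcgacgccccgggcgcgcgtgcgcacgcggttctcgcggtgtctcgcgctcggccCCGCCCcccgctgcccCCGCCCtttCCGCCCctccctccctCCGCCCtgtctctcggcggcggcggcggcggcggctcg
Gtf2a1l (chr17:88668510-88668659, plus strand): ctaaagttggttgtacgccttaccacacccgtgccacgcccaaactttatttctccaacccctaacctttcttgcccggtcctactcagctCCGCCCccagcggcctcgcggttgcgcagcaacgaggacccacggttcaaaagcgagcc
Taf9b (chrX:106219902-106220051, minus strand): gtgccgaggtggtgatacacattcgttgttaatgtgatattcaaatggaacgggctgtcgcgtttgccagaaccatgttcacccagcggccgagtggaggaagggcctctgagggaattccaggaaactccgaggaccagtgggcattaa
Taf7l (chrX:134476491-134476640, minus strand): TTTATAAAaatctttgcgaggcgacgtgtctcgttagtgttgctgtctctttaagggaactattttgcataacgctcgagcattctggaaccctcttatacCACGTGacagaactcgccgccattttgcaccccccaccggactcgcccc
Gtf2a1 had 27 CpGs and 80% G and C in this stretch. Gtf2a1l had 12 CpGs and 59.3%, Taf9b had 8 and 53.3%, and Taf7l had 11 and 50%. Such values did not separate members with a site from those without. The stretch of Gtf2b, which had a site, held 2 CpGs and 54.7%, and that of Med24, also with a site, held 4 and 46%. In the wider window of 500 bp on either side of the start, Taf9b met the definition of a CpG-rich start and the other two genes without a peak did not.

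A start was called CpG-rich where 500 bp on either side held at least 55% G and C and a CpG observed over expected ratio of at least 0.6, which was met by 60 members, or 61.9%, and by 40.1% of all protein-coding genes. Among CpG-rich starts, 58 of 60 members had a called peak in both replicates against 85.6% of such genes, and 53 of 60, or 88.3%, had a site against 68.8%. Among starts that are not CpG-rich, 24 of 37 members, or 64.9%, had a site against 19.7%. That class holds many starts with few CpGs, and no member had a ratio under 0.4. The counts were also taken within bands of the ratio. From 0.4 to 0.6 the site was present at 6 of 11 members and 31.6% of genes, from 0.6 to 0.8 at 36 of 48 members and 61.8%, and from 0.8 to 1 at 31 of 32 members and 75.7%. Above 1 it was present at 4 of 6 members and 80.8% of genes, with Taf7 and Med13l as the exceptions.

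**Figure D3:**
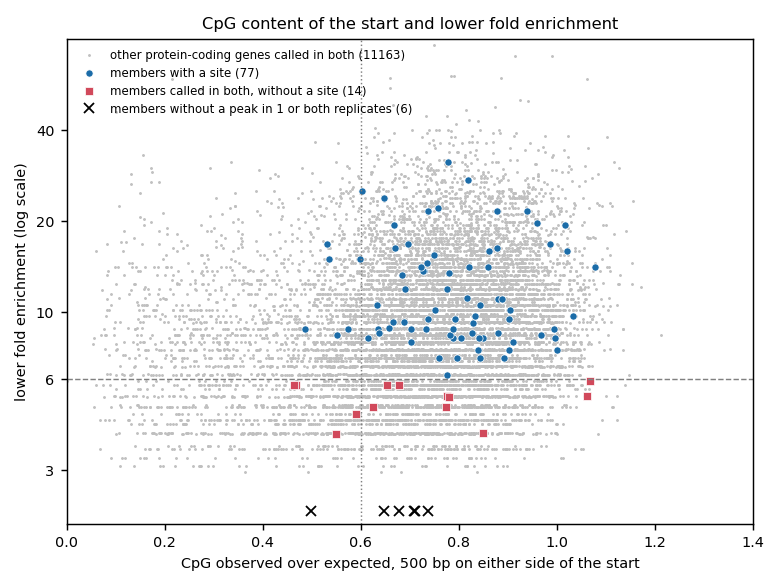
CpG observed over expected of the start (x axis) and lower fold enrichment (y axis, log) of protein-coding genes called in both replicates (grey), of the 77 members with a site (blue) and of the 14 called but filtered (red), with the 6 members that lack a peak in 1 or both replicates as crosses at the foot. Members lie within the cloud of other genes, and those without a site are spread from ratios under 0.5 to above 1.

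A shared promoter was common among the members. A start of another protein-coding gene, of any annotated transcript, lay within 1 kb on the other strand at 28 members, or 28.9%, against 11.9% of all genes, and all 28 had a site, where 79% of such genes had one. Of the members without such a neighbour, 49 of 69 had a site, or 71%, against 34%. Among the 28 were 12 of the 28 polymerase genes and 6 of the 30 Mediator genes. At 27 of the 77 members with a site, or 35.1%, the site also lay within 1 kb of a protein-coding transcript start of another gene, against 26.0% of the 8599 protein-coding genes with a site. Examples of pairs are Polr1c with Yipf3, 26 bp apart, Gtf2h3 with Eif2b1, 9 bp apart, Med20 with Bysl, 90 bp apart, and Med29 with Paf1, which encodes a subunit of an elongation complex, 243 bp apart. At a shared start a peak cannot be assigned to 1 of the genes. The summit was nearer to another gene's start than to any start of the member at 14 members in replicate 1 and at 10 in replicate 2.

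The strength of the member sites was close to that of promoter sites as a whole. The median lower fold was 10.2 at the 77 member sites and 9.72 at all 7807 promoter sites, with quartiles of 8.54 and 15.02 against 7.56 and 13.1. Counted by gene, where a shared site enters once for each of its genes, the median over all genes with a site was 10.2. Of the member sites, 39 lay above the median of all promoter sites, 11 were among the highest 10% and 1, Taf3, was among the lowest 10%. The median fold was 10.2 in replicate 1 for both sets, and in replicate 2 it was 12.2 for members and 11.8 for all. Replicate 2 had the higher fold at 57 of 77 member sites, or 74.0%, and at 74.5% of all promoter sites, with a median ratio of 1.16 and 1.15. Across the 77 sites Spearman's rho between replicates was 0.857, and across all promoter sites 0.805, as descriptions of sites that share their 2 libraries. The ratio of replicate 2 to replicate 1 ran from 0.727 at Taf9 to 1.81 at Taf2.

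**Figure D4:**
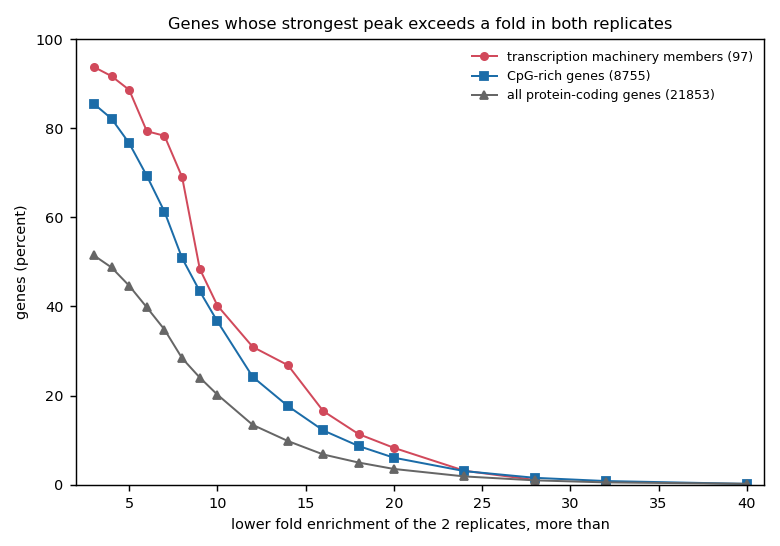
Percent of genes (y axis) whose strongest called peak exceeds a given fold (x axis) in both replicates, for the 97 members (red), genes with a CpG-rich start (blue) and all protein-coding genes (grey). The member curve lies above the CpG-rich curve from 93.8% against 85.5% at a fold of 3 to 8.25% against 6.03% at 20, and falls under it at 28, where 1 member is left.

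The width of the sites was alike as well, with a median of 1776 bp at members and 1869 bp at all promoter sites. Among members it ran from 635 bp at Med19 to 6212 bp at Polr2a. Gtf2i (3932 bp) and Gtf2a1 (3906 bp) were long as well, with lower folds of 15.5 and 15.9.

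The summit lay a median of 200.5 bp from the nearest start of the member in replicate 1 and 187 bp in replicate 2, against 216 and 214 bp for all genes with a called peak. Within 250 bp were 64.1% and 71.0% of the members, against 57.3% and 58.2% of all genes. Summits stood on both sides of the start, at 43 members upstream and 49 downstream in replicate 1 and at 41 and 52 in replicate 2. Upstream were thus 46.7% and 44.1% of members, against 44.1% and 47.0% of all genes. Member summits gathered from 200 to 300 bp upstream (14 and 16 members, 15.2% and 17.2%), where 11.6% and 13.2% of all genes had theirs. They also gathered from 100 to 200 bp downstream (22 and 23 members, 23.9% and 24.7%), against 19.3% and 18.6% of all genes. The gathering was therefore not particular to the members. Fewer members had a summit in the 100 bp just upstream of the start (6 and 6) or from 100 to 200 bp upstream (6 and 4). Over all genes those bins held 4.84% of summits in both replicates, and 8.47% and 9.23%, so that the bin just upstream of the start was the lower one there. Polr2l had summits far upstream, at -1637 and -519 bp, and the Tspan4 start was nearer in both replicates.

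**Figure D5:**
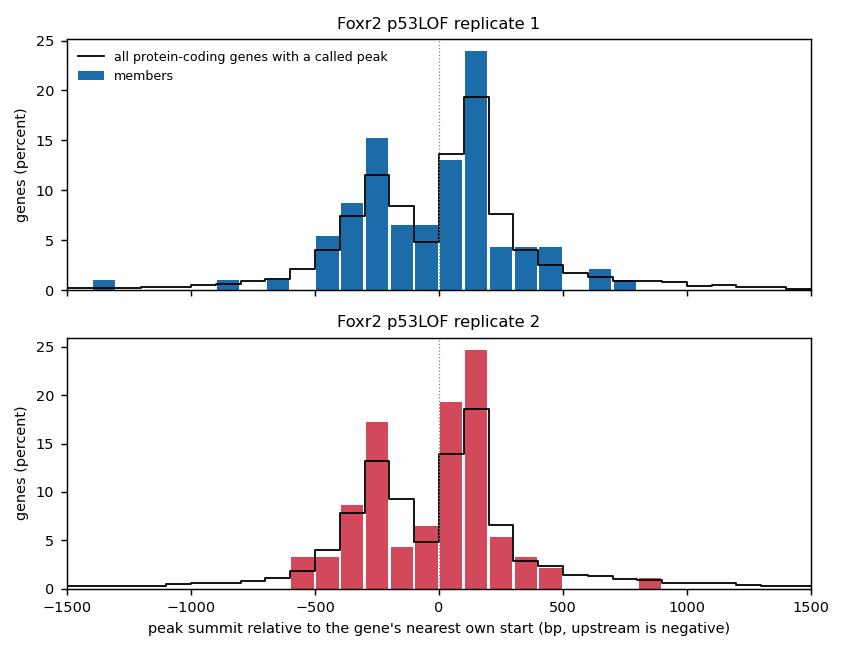
Position of the peak summit relative to the nearest own start of the gene (x axis, bp, upstream negative) in bins of 100 bp, as percent of members with a called peak (bars) and of all protein-coding genes with a called peak (black line), for replicate 1 (top) and replicate 2 (bottom). The fullest bin, with 22 and 23 members, runs from 100 to 200 bp downstream, and the bin just upstream of the start holds 6 members in each panel. The fullest bin is the same for all genes.

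On the X chromosome, 1 of 5 members had a site, against 76 of 92, or 82.6%, on the autosomes. The site was that of Med14, with folds of 7.95 and 9.86. Taf1 was called but filtered, Med12 was called in 1 library, and Taf7l and Taf9b had no peak. Of the 3 X-linked members with a CpG-rich start, 1 had a called peak in both replicates and 1 had a site, where 61.5% and 29.4% of X-linked genes with such a start did. Promoter sites on X had median folds of 7.95 and 8.87, against 10.2 and 11.8 over all chromosomes. On chromosome 11, by contrast, all 9 members had a site, among them Polr2a, Taf15, Med11 and Med31. There the CpG-rich genes had a site in 81.1% of cases and the median folds of promoter sites were 11.9 and 13.8. The part that the chromosome plays in the fold of a member was not tested.

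Sequence around the summits was searched on both strands within 100 bp of the summit, with 9 words. Each share is set beside that of the 7807 promoter sites. GGGCGG was present at 36.4% and 39% of member sites by the replicate 1 and replicate 2 summit, against 34.9% and 34.5%. The ETS word CCGGAAG was present at 6 members in each replicate, or 7.79%, against 5.3% and 5.48%. Those with it in both were Taf11, Gtf2a2, Gtf2ird2, Med20 and Med1. The forkhead word GTAAACA was present at Gtf2e1 and Gtf2h3 in replicate 1 and at Gtf2e1 in replicate 2, or 2.6% and 1.3%, against 1.6% and 1.5%. CCAAT was present at 20.8% and 13% of members against 15.4% and 16.2%, on different sides of the background in the replicates. CCNTTGT was present at 7.79% against 7.72% and 7.49%, CACGTG at 6.49% against 5.06% and 5%, and TATAAA at 5.19% and 3.9% against 3.7% in both. AAGATGGCG (the YY1 word) and GCATGCGC (the NRF1 word) were each present at no more than 2 member sites. The member shares were thus within a few sites of the background for each word.

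Reproducible sites away from any coding start were found within 10 kb of, or inside, 12 members, 15 sites in all. The same count over all protein-coding genes was not made, so it cannot be said whether this is many or few. Among those inside introns were sites in Polr3b, with folds of 10.6 and 10.5 at 89389 bp from the start, in Taf4b, in Med27 and at 3 places in Gtf2f2. Med27, whose start had a peak in replicate 1 alone, had its intronic site at chr2:29448187-29449422, 70345 bp from the start, with folds of 9.72 and 9.20. Med4, whose start failed in replicate 1, had a site upstream, at -6765 bp, with 11.05 and 17.4. Taf12 and Taf13 had one upstream as well, with 9.28 and 11.8, and 8.39 and 12.2. Of the 3 places in Gtf2f2, 2 share the same replicate 2 peak. Sites downstream were found at Polr2f, Taf9, Taf1a and Gtf2h3, with lower folds from 6.19 to 10.6. Which gene such a site belongs to cannot be told from these lists.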

How the data were processed

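CUT&RUN peaks with an antibody against V5 were taken for 2 Foxr2 p53LOF and 2 V5 control libraries, grouped by the genotype in the labels. The authors trimmed reads with Trimmomatic (0.39), aligned them to mm10 with BWA (0.7.17), removed duplicates with Picard (2.26.6) and called peaks library by library with MACS2 (2.2.7.1). The deposited fold is a ratio that MACS2 forms from summit and background fragments, each with 1 added. The authors also deposited 2 columns from the same caller on a −log10 scale, a p-value and a q-value, as well as an integer score derived from the q-value, which was not used. The authors' columns of summit offset and peak position were used as given.

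Here, following the filters in the methods, peaks of the Foxr2 p53LOF libraries that overlapped a control peak by at least 10 bp, or with −log10 q of 6 or less, fold of 6 or less or length of 10000 bp or more, were left out, and stretches covered by peaks of both replicates were kept as reproducible sites (overlap of at least 1 bp). Starts were those of protein-coding transcripts of GENCODE M21, with a window of 1 kb on either side. The representative start, used for composition and sequences, was that of the transcript with the best APPRIS class, then support level, then span, a rule chosen after seeing the data. A stretch away from starts that shared a summit with the member's own site was not counted apart, also by a rule chosen then. Backgrounds between 0.3 and 4 were scanned (step 0.0005), and the value kept made 100% of folds up to 30 in each library correspond to whole fragments, with a tolerance of 0.02. Intervals are exact 95% Poisson intervals of the summit count, and they cover counting error only. Sequences are from the RefSeq copy of GRCm38.p6. Analyses used Python 3.11.15, pandas 2.3.3, numpy 2.4.6, scipy 1.17.1 and pysam 0.24.0, and the background and site steps were tested on simulated data. Genes named are the highest and lowest of each complex, the 10 highest lower folds, all members without a site, paralogue pairs and members with further sites; other members were named to account for each complex, and 1 member that counts in the totals is not reported here by name. The members and gene lists were chosen with earlier results of these data known. Changes of the filters, window, starts and libraries were tried as alternatives. Read depth, expression and chromatin accessibility were not used here.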

Additional observations from a re-analysis of the deposited data

How the results depend on the processing

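The count of 77 members with a site ran from 72 to 91 under all 15 alternatives but a minimum fold of 10, and 71 members kept their site under each of those others. With a minimum fold of 10, 39 members and 19.8% of all genes had a site, and the median lower fold of the members was 15.02. Leaving out a Foxr2 p53LOF replicate gave 79 to 84 members, 42.0% to 43.7% of all genes and a median of 10.2 to 11.8, the upper value being that without replicate 1. This change drops the need for a peak in each replicate, so it could only add members. With no minimum on fold, 83 members and 43.1% of all genes had a site, and with none on fold or q, an alternative chosen after seeing the data, 91 members and 50.7% of all genes did, against 39.3% with the filters as applied, so that the 14 called but filtered members turn on these thresholds. With a minimum −log10 q of 10, 72 members and 33.6% of all genes did, and Taf2, Taf3, Med28, Med7 and Med12l lost theirs. With the gene start alone Med15 lost its site, and with the starts of all transcripts Gtf2h4 gained one. Leaving out either control library, also chosen after seeing the data, changed no member, but no member had a control peak at a start. The representative start was redefined after seeing the data; with the start used by most transcripts, as first computed, 52 of 57 members with a CpG-rich start had a site, against 69.1% of such genes, and 25 of 40 others, against 20.5%. Dividing each fold by the median of promoter sites on its chromosome gave a median of 10.7. No paired analysis was possible because no test between the groups was made and the replicate numbers pair no samples. The lowest folds called were 3.09 and 2.96 in the Foxr2 p53LOF libraries and 4.08 and 4.87 in the controls, and a member without a called peak may hold a weaker one.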
